A study of Mus musculus with 14 samples.

Results

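GMPs, the granulocyte-monocyte progenitors, were compared with LT-HSCs, the long-term haematopoietic stem cells, within AML1-ETO mice: 6 of the 14 libraries of the series, 3 of each cell type, chosen by their labels, with every gene of the table in scope. Bulk RNA was sequenced from sorted bone marrow cells of C57BL/6 mice. All 6 libraries carried the genotype Runx1-Runx1t1 and Mx1-Cre, and poly(I:C) was injected at 5 mg/kg in 4 doses to switch the fusion on. The series has 4 groups, and the other 2 are WT controls with the same poly(I:C) entry in the labels, 4 LT-HSC and 4 GMP libraries, used here only to ask whether the step from LT-HSC to GMP differed between genotypes. Mx1-Cre responds to interferon and is not limited to blood cells. The labels give neither the sort gates, the age or sex of the mice, nor whether each library is a mouse of its own. The p-values therefore speak only of the spread among these samples, part of which may be technical. The 6 libraries held 13348118 to 17626822 counts. The series title concerns fatty acid metabolism and a differentiation block before leukaemia.

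As background, LT-HSCs are rare, mostly quiescent cells that renew themselves and feed all blood lineages. GMPs are cycling descendants committed to neutrophils, monocytes and their relatives, and they fill with the enzymes of the primary (azurophil) granule. AML1-ETO is the product of the t(8;21) translocation of acute myeloid leukaemia, in which the DNA-binding Runt domain of RUNX1 is joined to most of RUNX1T1, a protein that recruits corepressors. In bulk RNA, fewer cells of a type and less RNA per cell cannot be told apart, which holds for every result here.

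The fused genes were examined first. Runx1t1 (chromosome 4, 13743436 to 13893649 in mm10) stood at 85.6, 164 and 125 CPM (read counts scaled to a common library size, with the TMM correction for composition) in the 3 AML1-ETO LT-HSC libraries and at 26.0, 26.3 and 45.7 CPM in the 3 GMP libraries. Every GMP value lay under every LT-HSC value, but the log2 difference of −1.93 ± 0.91 (adjusted p = 0.147) did not pass the test. Control libraries held 3.97, 0, 18.2 and 11.2 CPM in LT-HSCs and 2.62, 2.32, 1.69 and 2.74 CPM in GMPs. Runx1 (chromosome 16, 92601466 to 92826149), which takes reads of the normal gene and of the fusion alike, stood at 287, 440.3 and 302 CPM in LT-HSCs and at 219, 219 and 169 CPM in GMPs. It was lower in GMPs by −0.76 ± 0.19 on the log2 scale (edgeR quasi-likelihood F test, Benjamini-Hochberg adjusted p = 0.0111). The call was lost without LT-HSC library 2 (adjusted p = 0.0762), the highest of the 3 LT-HSC libraries.

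The AML1-ETO GMP libraries were unlike each other. Their log2 CPM values correlated at 0.847 to 0.868 with each other, against 0.983 to 0.986 among control GMPs and 0.932 to 0.956 among AML1-ETO LT-HSCs. Control LT-HSCs, an arm of every difference of steps, had the lowest range of the 4 groups, 0.784 to 0.859. With the control GMPs, libraries 1, 2 and 3 correlated at 0.870 to 0.874, 0.921 to 0.926 and 0.863 to 0.864, so libraries 1 and 2 were each closer to every control GMP library than to their own group. GMP libraries 1 and 3 held 596 and 512 CPM of Xist, the RNA of the inactive X chromosome, together with Y-linked genes below the LT-HSC level (Ddx3y 43.4 and 75.1 CPM), while library 2 held 1.11 CPM of Xist and 124 CPM of Ddx3y and the 3 LT-HSC libraries 0.307 to 5.19 and 112 to 160 CPM. For the Y-linked genes Kdm5d and Uty, library 2 also lay below the LT-HSC libraries (27.3 against 58.8 to 87.5 CPM and 25.7 against 33.8 to 38.7 CPM) and above libraries 1 and 3. Marker genes of other cells followed the same split. Over 5 neutrophil markers (Ltf, Camp, Ngp, Ly6g, Mmp8), the sums were 1624, 5.89 and 266 CPM in GMP libraries 1, 2 and 3, against 0.230 to 25.3 CPM in LT-HSCs. Over 3 erythroid markers (Hba-a1, Hbb-bs, Klf1) they were 4252, 49.2 and 1080 CPM, against 20.02 to 72.8 CPM. Library 3 was highest for 3 megakaryocyte markers (165 against 20.8 and 6.28 CPM) and held 618 CPM of the antibody gene Igha, which was at or near 0 elsewhere in these 6 libraries. Results are therefore given with all libraries and, as an alternative added after seeing the data, with GMP library 2 as the lone AML1-ETO GMP library, which is assumed to vary like the other groups. A library named without a genotype is an AML1-ETO library.

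Marker sums separated GMP from LT-HSC libraries in all 6 cases. Within each LT-HSC library, though, the GMP and mast cell marker sums were both above the LT-HSC marker sum. Summed over 7 GMP markers (Mpo, Elane, Prtn3, Ctsg, Cd34, Fcgr3, Cebpa), GMP libraries held 23408, 34305 and 20778 CPM and LT-HSC libraries 1385, 1438 and 1179 CPM. Summed over 7 LT-HSC markers (Slamf1, Procr, Hlf, Mecom, Fgd5, Hoxb5, Ly6a), LT-HSC libraries held 655, 737 and 719 CPM and GMP libraries 43.3, 18.9 and 101.5 CPM. Mast cell markers (Cpa3, Mcpt4, Cma1, Tpsb2, Fcer1a, Ms4a2) summed to 7931, 10228 and 8815 CPM in the LT-HSCs of AML1-ETO mice and to 779, 1489 and 1141 CPM in AML1-ETO GMPs. In control LT-HSCs that sum was 5.23 to 34.6 CPM, so the starting population of this step carried mast cell transcripts that control LT-HSCs did not share at that level.

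**Figure D1:**
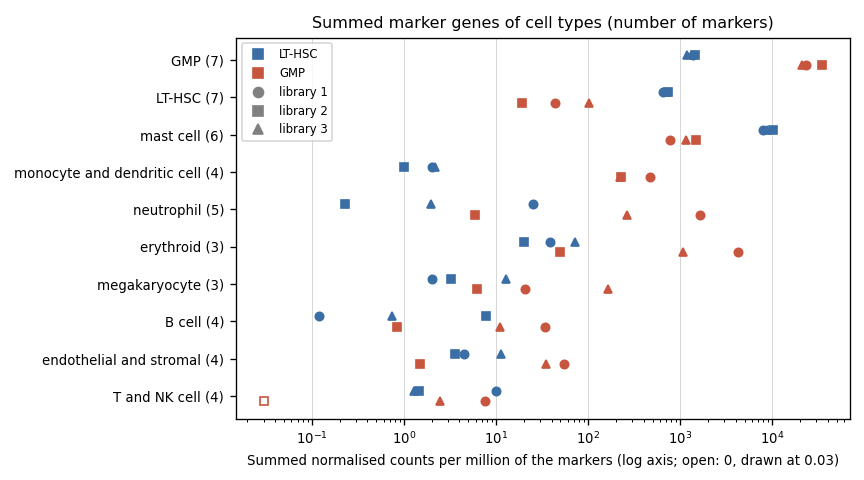
Summed CPM (log axis) of marker genes of 10 cell types, with the number of markers in brackets, in the 3 AML1-ETO LT-HSC libraries (blue) and the 3 AML1-ETO GMP libraries (red); symbols mark the library number, and an open symbol is a sum of 0 drawn at 0.03. GMP, LT-HSC and mast cell sums separate the cell types, whereas GMP library 2 (square) lies far below libraries 1 and 3 for neutrophil markers (5.89 against 1624 and 266 CPM) and erythroid markers (49.2 against 4252 and 1080 CPM).

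The fit covered 16116 genes, of which 2031 (12.6%) rose and 1474 (9.15%) fell from LT-HSCs to GMPs in AML1-ETO mice at an adjusted p under 0.05, 3505 (21.7%) in all. Counts of list members below stand beside these shares of rises and falls. The median called rise was 1.37 and the median called fall −1.53 on the log2 scale. All 3 GMP values lay above all 3 LT-HSC values for 3404 genes (21.1%) and below them for 3337 (20.7%). Among called genes, 86 rose from 0 counts in every LT-HSC library and 296 fell to 0 counts in every GMP library. With GMP library 2 alone, 1211 genes were higher and 777 lower, and 47.3% of the calls were kept in the same direction. Without LT-HSC library 2 the counts were 1294 and 798, and without GMP library 1 or LT-HSC library 3 the count of falls was 951 or 982.

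The enzymes of the primary granule rose. Mpo (chromosome 11, 87793581 to 87804413), myeloperoxidase, stood at 460.0, 523 and 412 CPM in LT-HSCs and at 13932, 24171 and 12486 CPM in GMPs, a log2 rise of 5.18 ± 0.48 (adjusted p = 1.15e-05). It took 1.36, 2.23 and 1.22% of all counts in the 3 GMP libraries, the largest share of any gene. Elane (chromosome 10, 79886247 to 79888215), neutrophil elastase, had 0 counts in each of the 3 LT-HSC libraries and stood at 3630.1, 2758 and 3105 CPM in GMPs, at least 48647-fold higher (adjusted p = 0.000102). The floor behind this bound is 3 counts over the LT-HSC group. Its neighbour Prtn3 (chromosome 10, 79874476 to 79883174), proteinase 3, was detected in every LT-HSC library, at 18.0, 8.68 and 14.4 CPM, and rose to 3363, 2633 and 2579 CPM, by 7.70 ± 0.59 (adjusted p = 4.21e-06). Ctsg, cathepsin G, already stood at 239, 378 and 252 CPM in LT-HSCs and rose to 1798, 4006 and 1975 CPM, by 3.16 ± 0.83 (adjusted p = 0.0144). Of these 4 enzymes, then, 3 had counts in every LT-HSC library and Elane in none.

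In the list of primary granule and GMP identity genes, 21 of 30 tested members rose, none fell and 9 were not called, with a median log2 difference of 4.06, beside 12.6% and 9.15% and a median of 0 over all genes tested. Clec12a, an inhibitory C-type lectin of myeloid cells, went from 0.199 ± 0.345 to 361 ± 93.5 CPM (SD, n = 3), by 10.67 ± 1.44 (adjusted p = 0.000151). Nkg7, a granule membrane protein gene, went from 30.7 ± 12.4 to 279.6 ± 56.8 CPM, by 3.19 ± 0.67 (adjusted p = 0.0036). Trem3, a receptor of myeloid cells, and Dmkn had 0 counts in LT-HSCs and stood at 33.1, 58.7 and 47.7 CPM and 20.8, 26.4 and 13.2 CPM in GMPs, at least 715-fold and 309-fold higher. Calr, the ER chaperone that helps to fold myeloperoxidase, rose from 1141, 1202 and 889 CPM to 3138, 5395 and 3091 CPM. No value of these members overlapped between the cell types. Cd34, Cd63, Srgn and Cst7 were among the 9 not called. This list gave 20 rises and no fall with GMP library 2 alone.

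**Figure D2:**
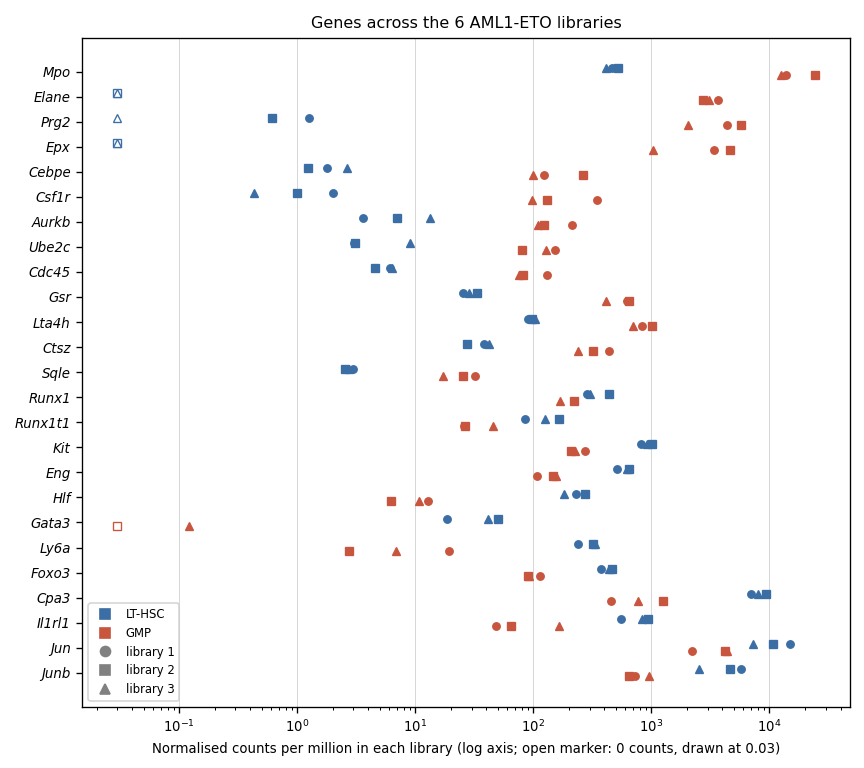
Normalised CPM (log axis) of 25 genes in each of the 3 AML1-ETO LT-HSC (blue) and 3 GMP (red) libraries; open markers are 0 counts, drawn at 0.03. The granule genes Mpo, Elane, Prg2 and Epx lie at 0 to 523 CPM in LT-HSCs and at 1038 to 24171 CPM in GMPs, Aurkb, Ube2c and Cdc45 also lie higher in GMPs, and Cpa3, Hlf, Gata3, Ly6a and Kit lie higher in LT-HSCs.

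Granule genes of mast cells and of eosinophils moved in opposite directions. The eosinophil genes rose: Epx (chromosome 11, 87864000 to 87875536), eosinophil peroxidase, from 0 counts in all LT-HSC libraries to 3414, 4589 and 1038 CPM, at least 46332-fold (adjusted p = 1.29e-05), and Prg2 (chromosome 2, 84980461 to 84983632), the eosinophil major basic protein, from 1.25, 0.614 and 0 CPM to 4401, 5685 and 2059 CPM, by 12.64 ± 1.30 (adjusted p = 2.34e-05). Prg3, a homologue of Prg2, and Ear1, an eosinophil ribonuclease, rose from 0 counts to 188, 354 and 76.0 CPM and 55.4, 85.7 and 57.6 CPM, at least 3168-fold and 1018-fold. Reads of Ear1 can be split with the near-identical Ear2 and Ear6, which rose too. GMP library 3 was the lowest of the 3 for Epx, Prg2 and Prg3 and still far above every LT-HSC library.

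The mast cell genes fell. Cpa3 (chromosome 3, 20215620 to 20242181), mast cell carboxypeptidase A3, stood at 6929, 9413 and 7926 CPM in LT-HSCs, where it was the third most counted gene over the group, and at 453, 1246 and 765 CPM in GMPs, a fall of −3.30 ± 0.51 (adjusted p = 0.000409). Il1rl1, the receptor of interleukin 33, went from 554, 938 and 834 CPM to 48.2, 65.1 and 166 CPM, by −3.06 ± 0.56 (adjusted p = 0.00144). Slc18a2, the vesicle transporter that loads histamine and other amines, went from 1015, 949.6 and 1025 CPM to 79.7, 44.2 and 132 CPM, by −3.55 ± 0.39 (adjusted p = 3.88e-05). Cma1, a mast cell chymase, went from 585 ± 70.7 to 81.2 ± 36.5 CPM, by −2.85 ± 0.83 (adjusted p = 0.0252), a call lost without GMP library 1, 2 or 3 or LT-HSC library 1, 2 or 3 (adjusted p = 0.0518 to 0.0821). Mitf, a transcription factor of mast cells, fell with them, from 139, 242 and 106 CPM to 19.8, 10.99 and 13.7 CPM, by −3.45 ± 0.83 (adjusted p = 0.00833), a call lost without LT-HSC library 2 (adjusted p = 0.0529). In GMPs none of these 5 genes reached its lowest LT-HSC value. The IgE receptor genes were not called: Ms4a2 stood at 171, 148 and 168 CPM in LT-HSCs and 96.5, 114 and 206 CPM in GMPs, and Fcer1a at 52.4, 23.4 and 47.4 CPM and 53.7, 5.30 and 119 CPM. In the whole mast cell and eosinophil list, basophil genes included, 10 of 29 rose, 5 fell and 14 were not called (9 and 5 of 30 with GMP library 2 alone). The falls numbered 3 without GMP library 1 or 3 or LT-HSC library 1, 2 or 3. The 10 were 7 eosinophil genes and Mcpt8, Prss34 and Rab44, of which the proteases Mcpt8 and Prss34 are known from basophils.

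RUNX proteins bind a core written here as TGTGGT, and the promoters of the genes on both sides of this contrast were read for it. The windows are the 250 bases before the RefSeq start (GRCm38.p6), 5′ to 3′ on the gene's strand, with each TGTGGT or its reverse complement ACCACA in capitals. Cpa3 (chr3:20242182-20242431, strand −) stands for the falling mast cell genes, Prg3 (chr2:84987965-84988214, strand +) for the rising eosinophil genes and Ctsg (chr14:56102575-56102824, strand −) for the primary granule. They were picked among members with a match, after it was seen.
Cpa3: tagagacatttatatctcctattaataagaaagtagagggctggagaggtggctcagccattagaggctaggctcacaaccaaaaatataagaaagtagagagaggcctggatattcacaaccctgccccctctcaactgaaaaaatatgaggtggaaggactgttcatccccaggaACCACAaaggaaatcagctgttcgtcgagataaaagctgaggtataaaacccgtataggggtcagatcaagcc
Prg3: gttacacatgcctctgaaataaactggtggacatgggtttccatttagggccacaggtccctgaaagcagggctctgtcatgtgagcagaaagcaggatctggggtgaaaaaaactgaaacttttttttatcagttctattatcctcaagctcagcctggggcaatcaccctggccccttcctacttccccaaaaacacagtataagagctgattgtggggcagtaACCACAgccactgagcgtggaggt
Ctsg: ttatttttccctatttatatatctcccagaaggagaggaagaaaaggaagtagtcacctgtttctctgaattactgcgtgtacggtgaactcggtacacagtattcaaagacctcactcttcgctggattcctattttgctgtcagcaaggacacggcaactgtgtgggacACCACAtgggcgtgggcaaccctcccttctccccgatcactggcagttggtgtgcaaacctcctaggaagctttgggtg
The 3 windows hold 1 match each. Of the genes with a RefSeq window, the core was found for 9 of 24 in the mast cell and eosinophil list (37.5%), 8 of 23 in the primary granule list (34.8%), 2 of 30 in the LT-HSC identity list (6.67%) and 1482 of 10807 genes tested (13.7%). Genes called higher held it in 12.8% and genes called lower in 13.4% of cases. No match was found in the windows of Mpo, Elane, Prtn3 and Epx. Such matches describe letters in a short window and do not show binding.

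Genes of later neutrophil granules rose, at levels that differed widely between the GMP libraries. Of 20 tested members, 17 rose and none fell, against 12.6% and 9.15% of all genes, with a median of 7.13. Mmp9, gelatinase B, had 0 counts in LT-HSCs and 120.2, 0 and 3.25 CPM in the GMP libraries, and Mmp8, neutrophil collagenase, 0 counts against 45.8, 0 and 2.45 CPM. Library 2 had no count of either, so the groups overlapped. Lrg1, a secreted glycoprotein of neutrophils, differed from these: it went from 0 counts to 55.9, 113 and 17.6 CPM, highest in library 2. The call of Mmp9 was lost without GMP library 1 or LT-HSC library 1, 2 or 3 (adjusted p = 0.0728 to 0.121), and that of Mmp8 was lost without GMP library 1, LT-HSC library 1, 2 or 3 or control GMP library 1, 2, 3 or 4 (adjusted p = 0.0504 to 0.129). Rises in the list numbered 9 without LT-HSC library 2 or 3, 10 without GMP library 1 and 11 without control GMP library 2, and 8 of 20 with GMP library 2 alone. The neutrophil marker sums given above (1624, 5.89 and 266 CPM) moved with this list, and their part in it was not tested.

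Monocyte genes rose in part. In the list for monocytes, macrophages and dendritic cells, 10 of 23 rose and none fell, against 12.6% and 9.15% of all genes. Csf1r, the receptor of macrophage colony-stimulating factor, went from 2.03, 0.998 and 0.428 CPM to 346, 131 and 98.1 CPM, by 7.36 ± 0.63 (adjusted p = 2.34e-05), and Cd14, the endotoxin co-receptor, from 0, 0 and 1.47 CPM to 72.4, 98.2 and 91.7 CPM, by 7.42 ± 1.53 (adjusted p = 0.00326). Both were at a high level in all 3 GMP libraries. Vcam1, an adhesion molecule of macrophages and stroma, reached 597, 70.0 and 161 CPM and Ly86, a partner of a Toll-like receptor homologue, 53.3, 0.196 and 28.2 CPM. These 2 were lowest in library 2, and Ly86 overlapped the LT-HSC values there, its call being lost without LT-HSC library 1 or 2 (adjusted p = 0.0655 and 0.0712). GMP library 2 alone gave 2 rises, Csf1r among them at 6.83 (adjusted p = 0.000172), and 1 fall. The macrophage complement genes C1qa, C1qb and C1qc stood at 157 to 199 CPM in library 1, against 4.25 to 21.9 CPM in libraries 2 and 3.

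Lineages outside the granulocyte-monocyte path showed the split between libraries directly. Erythroid genes were called higher for 10 of 28 members, with none lower, against 12.6% and 9.15% of all genes. Hba-a1 and Hbb-bs, the globin chains, stood at 2127, 25.3 and 507 CPM and 2127, 23.4 and 547 CPM in GMPs against 17.4, 8.22 and 33.8 CPM and 14.9, 9.14 and 33.1 CPM in LT-HSCs. Globin reads can be shared among near-identical copies. Rhag, a Rhesus-associated membrane protein gene, stood at 19.4, 0 and 9.80 CPM and Add2, of the red cell membrane skeleton, at 3.62, 0 and 24.0 CPM. Library 2 was at or below the LT-HSC range for Rhag and Add2 and within it for both globins. The calls were lost without GMP library 1 or LT-HSC library 1 or 2 (adjusted p = 0.0747, 0.0553 and 0.0661) for Hba-a1, lost without GMP library 1 or LT-HSC library 1 or 2 (adjusted p = 0.0591, 0.0503 and 0.0582) for Hbb-bs, lost without GMP library 1 or LT-HSC library 1 or 3 (adjusted p = 0.0572, 0.0801 and 0.0789) for Rhag and lost without GMP library 1 or 3, LT-HSC library 1, 2 or 3, control GMP library 2, 3 or 4 or control LT-HSC library 2 or 4 (adjusted p = 0.0545 to 0.311) for Add2. Erythroid rises numbered 4 without GMP library 1, 5 without LT-HSC library 1 or 2 and 6 without LT-HSC library 3. With GMP library 2 as the lone AML1-ETO GMP library, the log2 differences were 0.37 for Hba-a1, 0.31 for Hbb-bs, −3.28 for Rhag and −5.90 for Add2.

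Among megakaryocyte and platelet genes 1 of 23 rose, Gp9, a chain of the von Willebrand factor receptor, at 2.96, 0.982 and 14.5 CPM against 0.956, 0.307 and 0.428 CPM, a call lost without GMP library 3 or LT-HSC library 2 or 3 (adjusted p = 0.104, 0.0757 and 0.0634). Without GMP library 3, 7 of these genes were lower and none higher, and without library 2, 4 were higher. Among B cell and lymphoid genes 3 of 24 rose and 1 fell, close to the 12.6% and 9.15% of all genes. The rises numbered 0 without GMP library 1, LT-HSC library 3 or control GMP library 1 and 1 without LT-HSC library 1 or 2, control GMP library 2, 3 or 4 or control LT-HSC library 1. Cd79a, a chain of the B cell receptor complex, stood at 21.8, 0.524 and 3.19 CPM in GMPs, highest in library 1, a call lost without GMP library 1, LT-HSC library 1 or 3, control GMP library 1, 2, 3 or 4 or control LT-HSC library 1 or 2 (adjusted p = 0.0578 to 0.436). Dntt, the terminal transferase of lymphoid-primed cells, fell from 243, 280.3 and 183 CPM to 3.22, 2.94 and 17.5 CPM, by −4.89 ± 0.75 (adjusted p = 0.000409), with no overlap. Among T and NK cell genes 2 of 22 rose and 3 fell, also near the 12.6% and 9.15% of all genes. Prf1 (chromosome 10, 61297833 to 61304680), perforin, fell from 59.3, 24.0 and 8.56 CPM to 0 counts in all GMP libraries, at least 478-fold (adjusted p = 0.000463). Tcf7, a transcription factor of T cells and stem cells, rose from 2.33, 1.38 and 1.22 CPM to 12.3, 10.6 and 15.4 CPM, by 2.94 ± 0.76 (adjusted p = 0.013), a call lost without LT-HSC library 2 or 3 (adjusted p = 0.0609 and 0.0576). The defining T and NK cell markers summed to at most 9.90 CPM in any of the 6 libraries.

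Transcription factors of granulocytes rose and several of stem cells fell. Of 51 tested, 6 rose and 12 fell, against 12.6% and 9.15% of all genes. In the C/EBP family, which drives granulocyte genes, 3 members rose: Cebpe from 1.79, 1.23 and 2.63 CPM to 122, 266 and 99.8 CPM, by 6.41 ± 0.45 (adjusted p = 8.87e-06), Cebpd from 2.81 ± 1.80 to 91.1 ± 10.04 CPM, by 5.02 ± 1.09, and Cebpa from 7.91 ± 7.28 to 162 ± 74.6 CPM, by 4.34 ± 0.87. Every GMP value of these 3 genes lay above every LT-HSC value, and with GMP library 2 alone Cebpa was no longer called, at 3.27 (adjusted p = 0.0682). Cebpb differed by 0.37 ± 0.54 (adjusted p = 0.71) and Cebpg by −0.03 ± 0.32 (adjusted p = 0.969), neither of them called. Spi1, which encodes PU.1, went from 65.0 ± 18.0 to 269 ± 127 CPM, by 2.05 ± 0.35 (adjusted p = 0.000898). Irf8, the monocyte factor, stood at 509.8, 25.7 and 209.6 CPM in GMPs against 12.3, 9.37 and 15.1 CPM, lowest in library 2, where alone its difference was 1.08 (adjusted p = 0.372).

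The factors that fell are known from stem cells, lymphoid cells and mast cells. Gata3 stood at 18.6, 50.2 and 41.3 CPM in LT-HSCs, with 2 counts in all GMP libraries together (adjusted p = 8.71e-06). Ikzf2, a zinc finger protein of the Ikaros family, went from 336, 514 and 312 CPM to 40.0, 142 and 78.0 CPM, by −2.16 ± 0.40 (adjusted p = 0.00159). Satb1, a chromatin organiser, went from 177, 215 and 142 CPM to 39.7, 72.4 and 14.5 CPM, by −2.08 ± 0.49. No value of these 3 overlapped. Gata2, Tal1, Erg and Hhex were among the other falls.

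Receptors for blood cytokines and chemokines moved both ways, 7 of 35 up and 5 down, against 12.6% and 9.15% of all genes. Beside Csf1r, Csf2ra, a chain of the GM-CSF receptor, rose from 51.0, 46.7 and 58.2 CPM to 361, 263 and 232 CPM, by 2.46 ± 0.26 (adjusted p = 2.53e-05), and Il6ra from 15.2 ± 1.91 to 77.4 ± 31.5 CPM, by 2.35 ± 0.43. Ifngr2, a chain of the interferon gamma receptor, stood at 54.3, 6.15 and 10.7 CPM, a call lost without GMP library 1 or LT-HSC library 2 (adjusted p = 0.134 and 0.0717). Kit (chromosome 5, 75574916 to 75656722), the stem cell factor receptor, fell from 819, 1019.9 and 913 CPM to 276, 209 and 227 CPM, by −1.95 ± 0.18 (adjusted p = 1.01e-05). Tgfbr2 went from 228 ± 21.4 to 59.6 ± 8.45 CPM, by −1.94 ± 0.30. Il1rap, the shared chain of interleukin 1 family receptors, went from 52.7, 58.8 and 40.2 CPM to 15.8, 28.6 and 4.35 CPM, by −1.64 ± 0.55 (adjusted p = 0.0465), a call lost without GMP library 1 or 3, LT-HSC library 1, 2 or 3 or control GMP library 1, 2, 3 or 4 (adjusted p = 0.0628 to 0.137).

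Genes linked to human t(8;21) leukaemia moved both ways: of 21 tested, 6 fell and 3 rose, against 9.15% and 12.6% of all genes. Lat2, an adaptor of immune receptors, went from 266, 228 and 217 CPM to 33.5, 32.9 and 51.6 CPM, by −2.59 ± 0.27 (adjusted p = 2.73e-05), and Plcg1, a phospholipase of receptor signalling, from 325, 382 and 314 CPM to 35.1, 63.5 and 77.8 CPM, by −2.53 ± 0.33 (adjusted p = 0.000127). Sox4 went from 319.6 ± 39.9 to 98.4 ± 37.0 CPM, by −1.70 ± 0.37, and Angpt1, the ligand of the Tie2 receptor, from 376 ± 81.1 to 74.2 ± 77.3 CPM, by −2.34 ± 0.56. LT-HSC values of these 4 genes lay above all GMP values. Cebpa, Spi1 and Bcl2 were the 3 that rose, and the call of Bcl2 was lost without GMP library 1 or LT-HSC library 1 or 2 (adjusted p = 0.0575, 0.0524 and 0.0711).

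Stem cell genes fell, but only part of the list did so by the test. Of 46 LT-HSC identity genes, 14 fell, 1 rose and 31 did not pass, against 9.15% falls and 12.6% rises over all genes. The list's median was −1.21 (−1.05 with genes at 0 counts set to their bound). Hlf, a transcription factor used to mark stem cells, went from 228, 277 and 182 CPM to 12.8, 6.28 and 10.8 CPM, by −4.52 ± 0.54 (adjusted p = 6.27e-05). Ly6a, which encodes Sca-1, went from 241, 323 and 332 CPM to 19.3, 2.75 and 6.92 CPM, by −4.95 ± 0.79 (adjusted p = 0.00054). Fgd5 stood at 54.4 ± 8.71 CPM in LT-HSCs and 3.57 ± 0.775 CPM in GMPs, by −3.92 ± 0.57. For Procr, the endothelial protein C receptor, the values were 72.9, 38.9 and 64.8 CPM and 0, 3.53 and 2.88 CPM, a call lost without GMP library 1, 2 or 3, LT-HSC library 1, 2 or 3 or control GMP library 3 (adjusted p = 0.0502 to 0.0922). The member that rose was Ifitm1, at 19.01, 3.40 and 40.7 CPM against 2.75, 3.69 and 1.41 CPM. Its values overlapped between the cell types, and the call was lost without GMP library 3 or LT-HSC library 3 (adjusted p = 0.0554 and 0.054). The list had 20 falls and no rise with GMP library 2 alone, and 23 falls without GMP library 3. Mecom, a regulator of stem cells, had 11.6, 4.07 and 16.6 CPM in the stem cells of AML1-ETO mice and 2.96, 0 and 9.56 CPM in GMPs and was not called, while control LT-HSCs held 176, 101.00, 41.9 and 117 CPM.

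Among 14 surface marker genes of LT-HSCs and GMPs, listed from general knowledge, 1 rose and 5 fell, against 12.6% and 9.15% of all genes. Eng, endoglin, fell from 507, 643 and 619 CPM to 107, 148 and 156 CPM, by −2.11 ± 0.16 (adjusted p = 4.21e-06), and Cd27, a co-stimulatory receptor, from 97.5, 78.2 and 91.0 CPM to 27.9, 8.83 and 31.4 CPM, by −1.97 ± 0.39 (adjusted p = 0.00238). Fcgr2b, an inhibitory Fc receptor detected by CD16/32 antibodies, was the marker that rose, from 37.5, 30.8 and 52.0 CPM to 238, 269.9 and 156 CPM, by 2.46 ± 0.42 (adjusted p = 0.000898). Fcgr3, the other target of those antibodies, stood at 67.8, 88.4 and 74.9 CPM in LT-HSCs and 262, 259.6 and 195 CPM in GMPs without overlap, and 1.63 ± 0.65 (adjusted p = 0.0857) did not pass the test. Cd34 stood at 586, 437 and 423 CPM and 252, 424 and 252 CPM, a log2 difference of −0.64 ± 0.25 (adjusted p = 0.0841). Cd48, a marker that LT-HSCs are commonly sorted to lack, stood at 181, 256 and 204 CPM in LT-HSCs and 71.0, 92.4 and 67.2 CPM in GMPs, and −1.48 ± 0.95 (adjusted p = 0.306) did not pass either. In control mice the same 3 genes rose across the step: Fcgr3 from 2.80, 0.546, 0 and 0 to 176, 170.4, 174 and 202 CPM, Cd34 from 48.0, 59.5, 39.3 and 30.0 to 341, 405, 418 and 378 CPM and Cd48 from 7.06, 12.5, 0 and 0 to 81.9, 80.3, 92.1 and 80.8 CPM. The difference between the genotypes' steps was −6.05 ± 0.96 (adjusted p = 0.00297) for Fcgr3, −3.76 ± 0.34 (adjusted p = 0.000333) for Cd34 and −5.57 ± 1.34 (adjusted p = 0.0243) for Cd48. AML1-ETO and control GMPs had similar levels of Cd34 and Cd48, and the AML1-ETO LT-HSC libraries lay above every control LT-HSC library for all 3.

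Slamf1, the CD150 gene of LT-HSCs, had 50.3, 31.1 and 76.2 CPM in LT-HSCs and 5.52, 2.49 and 67.3 CPM in GMPs. Library 3 was within the LT-HSC range, which the other 2 GMP libraries were far below, and with library 2 alone the difference was −4.38 (adjusted p = 0.0249). Itga2b, the integrin of megakaryocytes and their progenitors, had library 3 above the LT-HSC range and the other 2 GMP libraries below it: 192, 142 and 1347 CPM in GMPs and 426, 273 and 746 CPM in LT-HSCs, with a difference of 0.22 ± 0.67 (adjusted p = 0.88). Flt3 stood at 100.70, 48.7 and 61.0 CPM and 13.7, 0 and 18.99 CPM, not called (adjusted p = 0.0586). Thy1 and Il7r stayed at or under 14.9 CPM in all 6 libraries.

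**Figure D3:**
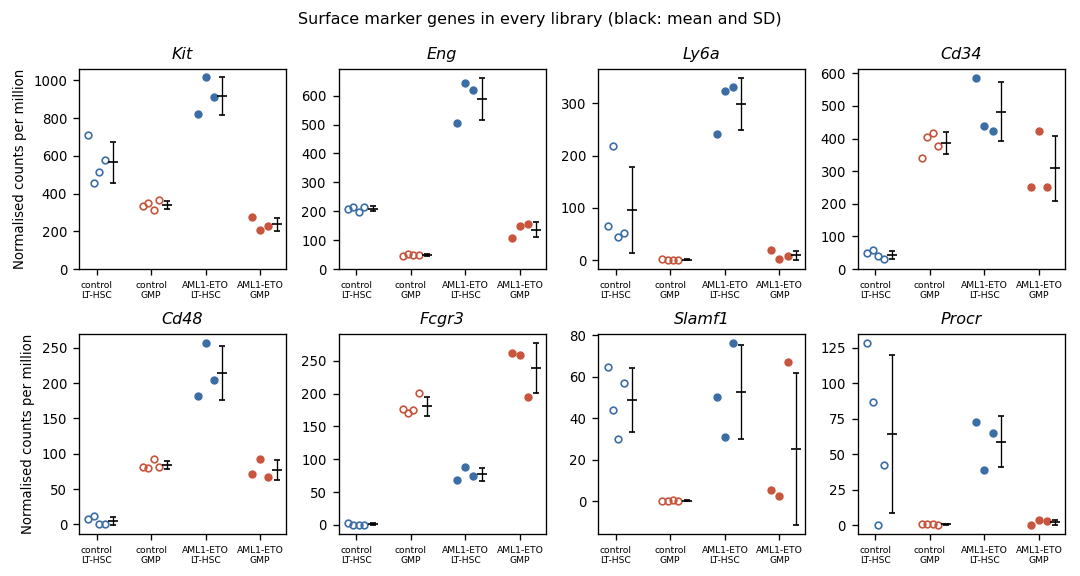
CPM of 8 surface marker genes in every library, with control libraries as open and AML1-ETO libraries as filled circles (blue LT-HSC, red GMP) and mean with SD in black (n = 4 control, n = 3 AML1-ETO). Cd34, Cd48 and Fcgr3 are near the bottom of the axis in control LT-HSCs but not in AML1-ETO LT-HSCs, while Kit, Eng and Ly6a are lower in GMPs of both genotypes.

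Regulators of quiescence and growth arrest fell, 12 of 23 with none higher, against 9.15% and 12.6% of all genes, and a median of −0.99. This list shares members with that of immediate early genes below, Nr4a1, Egr1 and Btg2 among them. The falls of these lists are therefore not separate results. Foxo3, a transcription factor that keeps stem cells quiescent, went from 376, 461 and 434 CPM to 114, 89.3 and 92.6 CPM, by −2.10 ± 0.21 (adjusted p = 2.07e-05). Btg2, an antiproliferative gene, went from 1791, 1066 and 411 CPM to 149, 246 and 180.0 CPM, by −2.51 ± 0.43. Cdkn1b, the inhibitor p27, went from 199.7 ± 26.7 to 107 ± 14.1 CPM, by −0.90 ± 0.22. The quiescence list gave 5 falls with GMP library 2 alone.

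Cell cycle genes rose together. Of 42 tested genes of G2/M and mitosis, 40 rose and none fell, with a median of 3.21, and the 2 not called were Cdc25c and Pttg1. Aurkb (chromosome 11, 69045647 to 69051664), a kinase of chromosome segregation, stood at 3.64, 6.99 and 13.2 CPM in LT-HSCs and at 214, 122 and 110.0 CPM in GMPs, a rise of 4.23 ± 0.40 (adjusted p = 1.29e-05). Ube2c (chromosome 2, 164769898 to 164778822), the ubiquitin enzyme of the anaphase-promoting complex, went from 3.05, 3.07 and 9.05 CPM to 153, 80.5 and 128 CPM, by 4.57 ± 0.72 (adjusted p = 0.00051). Bub1, of the spindle checkpoint, went from 0.836, 2.92 and 5.56 CPM to 87.5, 49.5 and 77.6 CPM, by 4.52 ± 0.59 (adjusted p = 0.000123). Cdkn3, a phosphatase that acts on cyclin-dependent kinases, went from 0.239, 0.307 and 1.04 CPM to 10.9, 3.47 and 20.8 CPM, by 4.45 ± 1.33 (adjusted p = 0.028), a call lost without GMP library 3 or LT-HSC library 1 or 2 (adjusted p = 0.0768, 0.102 and 0.113). In LT-HSCs, library 3 was the highest for all 4, and no GMP value overlapped. The G2/M list gave 37 rises and no fall with GMP library 2 alone.

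Of 50 genes of DNA replication and S phase, 44 rose and 1 fell, with a median of 2.13. Rrm2, the small subunit of ribonucleotide reductase, went from 2.81, 4.91 and 18.9 CPM to 211, 182 and 154 CPM, by 4.35 ± 0.57 (adjusted p = 0.000123). Cdc45, of the replicative helicase, went from 6.15, 4.53 and 6.30 CPM to 130.5, 81.6 and 75.9 CPM, by 4.08 ± 0.36 (adjusted p = 8.87e-06), and Mcm10 and Gins1, which act with it, by 3.48 ± 0.36 and 3.84 ± 0.58. The fall was that of Chaf1b, a histone chaperone subunit, from 99.6 ± 14.2 to 63.5 ± 9.18 CPM, a call lost without GMP library 1 or 2, LT-HSC library 1, 2 or 3 or control GMP library 1, 2, 3 or 4 (adjusted p = 0.0616 to 0.155). All 6 genes of the Mcm2 to Mcm7 helicase ring rose. With GMP library 2 as the lone AML1-ETO GMP library, the log2 differences were 4.37 for Rrm2, 3.86 for Cdc45, 3.46 for Mcm10, 3.77 for Gins1 and −0.73 for Chaf1b. Cdk4, the kinase of the D cyclins, rose by 1.02 ± 0.17 (adjusted p = 0.000698) and Cdk6, its relative, fell from 1678, 2138 and 1806 CPM to 422, 850.5 and 661 CPM, by −1.54 ± 0.37 (adjusted p = 0.00899), a call lost without GMP library 1 (adjusted p = 0.0502).

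Promoters of mitotic genes commonly carry CCAAT boxes and the cell cycle homology region, written here as TTTGAA, so both were looked for in the 250 bases before the RefSeq start (GRCm38.p6, the gene's strand, either orientation, matches in capitals). Of the rising genes that hold both, 3 are shown as examples. They are Ube2c (chr2:164769679-164769928, strand +), Cdkn3 (chr14:46760291-46760540, strand +) and Cdk1 (chr10:69352913-69353162, strand −), the mitotic kinase, which went from 7.94, 5.45 and 20.5 CPM to 136, 135 and 145 CPM. They were chosen among members that hold both motifs, after the matches were seen.
Ube2c: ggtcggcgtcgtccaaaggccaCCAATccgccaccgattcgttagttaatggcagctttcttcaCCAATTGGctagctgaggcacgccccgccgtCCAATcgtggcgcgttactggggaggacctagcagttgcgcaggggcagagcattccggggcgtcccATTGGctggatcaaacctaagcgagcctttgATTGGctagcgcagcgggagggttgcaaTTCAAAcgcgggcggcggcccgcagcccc
Cdkn3: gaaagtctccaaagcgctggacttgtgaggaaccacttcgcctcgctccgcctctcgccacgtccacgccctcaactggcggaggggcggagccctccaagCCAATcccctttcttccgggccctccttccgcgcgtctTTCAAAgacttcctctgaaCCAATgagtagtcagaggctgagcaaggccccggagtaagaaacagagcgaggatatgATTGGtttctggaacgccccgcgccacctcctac
Cdk1: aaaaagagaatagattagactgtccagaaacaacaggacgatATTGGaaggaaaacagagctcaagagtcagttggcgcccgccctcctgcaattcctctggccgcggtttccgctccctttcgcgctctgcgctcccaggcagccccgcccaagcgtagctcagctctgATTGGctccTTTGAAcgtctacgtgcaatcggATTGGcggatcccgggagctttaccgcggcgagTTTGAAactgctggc
The Ube2c window holds 6 CCAAT or ATTGG matches, 2 of which overlap, and 1 TTTGAA or TTCAAA match, Cdkn3 3 and 1, and Cdk1 3 and 2. Over the G2/M list, 28 of 36 genes with a window held CCAAT (77.8%) and 14 held TTTGAA (38.9%), against 40.3% and 13.3% of the 10807 tested genes with a window. In the replication list the shares were 61.5% and 17.9% of 39. No reading of factor binding follows from these counts.

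Genes of growth and biosynthesis rose widely. Of 25 nucleotide synthesis and one-carbon genes, 21 rose and none fell. Mthfd2, the mitochondrial one-carbon enzyme, went from 2.51, 3.07 and 4.89 CPM to 31.3, 38.8 and 29.9 CPM, by 3.25 ± 0.47 (adjusted p = 0.000247), and Umps, of pyrimidine synthesis, from 28.8 ± 10.1 to 135 ± 31.8 CPM, by 2.23 ± 0.28. Of 32 ribosome biogenesis genes, 23 rose and none fell. Nhp2, a protein of box H/ACA particles, went from 34.1, 26.4 and 34.3 CPM to 164, 121 and 115 CPM, by 2.08 ± 0.25 (adjusted p = 6.16e-05), and Rrp12, a nucleolar export factor, by 1.64 ± 0.32. Ribosomal protein genes moved less: 10 of 50 rose, against 12.6% of all genes, and none fell. Their median was 0.36, with Rps2 at 0.89 ± 0.19 and Rpl8 at 0.82 ± 0.17. Their rises numbered 2 without LT-HSC library 2, 4 without GMP library 2 or LT-HSC library 3, 5 without GMP library 3 or control GMP library 1 or 2, 6 without GMP library 1, LT-HSC library 1 or control GMP library 3 or 4 and 21 without control LT-HSC library 2. With GMP library 2 alone the rises were 15, 18 and 3 in the nucleotide, ribosome biogenesis and ribosomal protein lists.

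Energy genes moved in the same direction. Of 60 respiratory chain and TCA cycle genes, 42 rose and none fell, with a median of 0.97. Cycs, cytochrome c, went from 33.3, 25.5 and 30.7 CPM to 170.5, 129.7 and 89.8 CPM, by 2.12 ± 0.31 (adjusted p = 0.000284), and Uqcrq, of complex III, from 27.2 ± 2.66 to 106 ± 14.7 CPM, by 1.96 ± 0.31. Of 31 glycolysis and pentose phosphate genes, 20 rose and 3 fell, against 12.6% and 9.15% of all genes. Pgd, of the pentose phosphate path, went from 118, 125 and 117 CPM to 624, 509.8 and 445 CPM, by 2.13 ± 0.20 (adjusted p = 1.23e-05). The lactate carriers Slc16a1 and Slc16a3 went up by 2.70 ± 0.32 and 2.12 ± 0.37. The glucose carrier Slc2a3 went down, from 451, 386 and 358 CPM to 88.2, 47.1 and 213 CPM, by −1.78 ± 0.43 (adjusted p = 0.00883), as did Pfkm by −1.54 ± 0.23 and Hk1 by −0.77 ± 0.23, isoforms of phosphofructokinase and hexokinase. The call of Hk1 was lost without GMP library 1 or 2 or LT-HSC library 1, 2 or 3 (adjusted p = 0.0527 to 0.121). Ldhb, a lactate dehydrogenase chain, stood at 0, 0 and 0 CPM in LT-HSCs and 27.4, 0 and 0 CPM in GMPs, a call lost without GMP library 1 or LT-HSC library 1, 2 or 3 (adjusted p = 0.0722 to 1).

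The secretory machinery followed. Of 26 ER chaperone and folding genes, 22 rose and none fell. Sdf2l1, an ER stress-induced chaperone partner, went from 9.26, 16.7 and 17.1 CPM to 271, 211 and 209 CPM, by 4.01 ± 0.40 (adjusted p = 1.8e-05), Manf by 2.23 ± 0.25 and P4hb, protein disulfide isomerase, from 389.8 ± 19.1 to 1803 ± 576 CPM, by 2.21 ± 0.20. Of 30 lysosome genes, 15 rose and none fell, against 12.6% and 9.15% of all genes. Ctsh and Ctsz, cathepsins, went from 0.538, 1.38 and 3.12 CPM to 163, 47.5 and 42.3 CPM and from 38.4, 27.3 and 42.4 CPM to 437, 319 and 239 CPM, by 5.64 ± 0.66 and 3.20 ± 0.25. Ctss stood at 125, 9.36 and 16.8 CPM in GMPs, a call lost without GMP library 1 (adjusted p = 0.0637). Ctsb, another cathepsin, was highest in that library as well. GMP library 2 alone gave 20 rises among ER genes and 9 among lysosome genes.

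Of 24 genes of the NADPH oxidase and of antioxidant defence, 11 rose and none fell, against 12.6% and 9.15% of all genes. Gsr, glutathione reductase, went from 25.6, 33.6 and 28.6 CPM to 618, 643 and 416 CPM, by 4.25 ± 0.24 (adjusted p = 4.33e-07). Cybb, the catalytic subunit of the phagocyte oxidase, went from 1.31, 0.23 and 1.35 CPM to 287, 56.0 and 82.9 CPM, by 7.16 ± 0.80 (adjusted p = 4.18e-05), and Ncf1, a cytosolic subunit, from 23.3, 35.6 and 21.3 CPM to 382, 84.0 and 232 CPM, by 3.12 ± 0.63. Hmox1, haem oxygenase, had 437, 25.5 and 78.4 CPM in GMPs and 15.3, 4.91 and 22.01 CPM in LT-HSCs, a call lost without GMP library 1, LT-HSC library 1, 2 or 3 or control GMP library 1 or 3 (adjusted p = 0.0507 to 0.323).

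**Figure D4:**
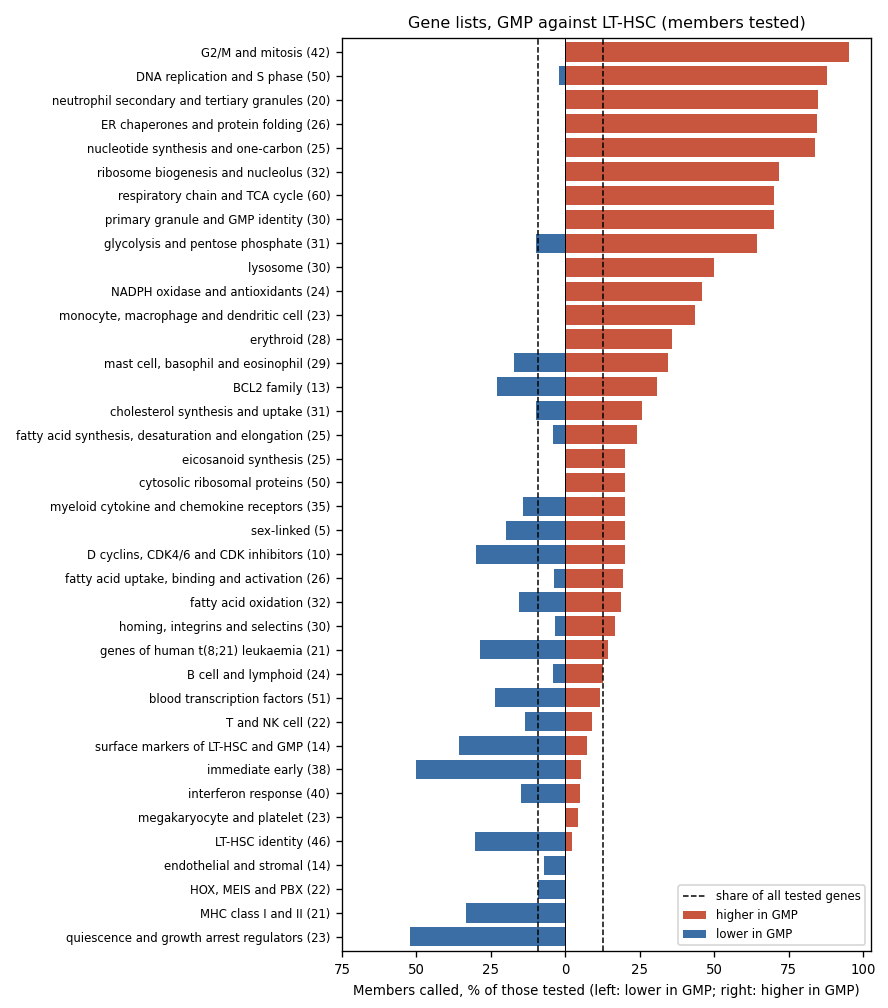
Share of the tested members of 38 gene lists called higher (red, right) or lower (blue, left) in AML1-ETO GMPs than in AML1-ETO LT-HSCs, with the number tested in brackets; dashed lines mark the shares over all tested genes, 12.6% higher and 9.15% lower. Mitosis (40 of 42) and DNA replication (44 of 50) have the largest shares of rises, and quiescence regulators (12 of 23) and immediate early genes (19 of 38) those of falls. Quiescence and immediate early lists share members, Nr4a1, Egr1 and Btg2 among them.

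Lipid genes were examined because the study concerns fatty acid metabolism. In cholesterol synthesis and uptake, 8 of 31 rose and 3 fell, against 12.6% and 9.15% of all genes. Sqle (chromosome 15, 59315077 to 59331192), squalene epoxidase, went from 2.99, 2.53 and 2.75 CPM to 32.4, 25.6 and 17.3 CPM, by 3.18 ± 0.31 (adjusted p = 1.6e-05). Cyp51, lanosterol demethylase, went from 1.91, 2.46 and 2.57 CPM to 30.6, 26.3 and 24.8 CPM, by 3.55 ± 0.40 (adjusted p = 4.18e-05). Soat1, which esterifies cholesterol, went up by 3.06 ± 0.41. The falls were the exporters Abca1, by −1.82 ± 0.56, and Abcg1, by −1.47 ± 0.40, and Srebf2, the transcription factor of the pathway, by −0.53 ± 0.18. The call of Abca1 was lost without GMP library 2 or 3 or LT-HSC library 1, 2 or 3 (adjusted p = 0.0597 to 0.101), that of Abcg1 lost without GMP library 2 or 3 or LT-HSC library 1 (adjusted p = 0.0733, 0.0536 and 0.0682) and that of Srebf2 lost without GMP library 1, 2 or 3, LT-HSC library 1, 2 or 3 or control GMP library 2, 3 or 4 (adjusted p = 0.059 to 0.15). Falls numbered 0 without GMP library 3 or LT-HSC library 1 and 1 without GMP library 2 or LT-HSC library 2. GMP library 2 alone gave 8 rises and 2 falls.

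In fatty acid synthesis, desaturation and elongation, 6 of 25 rose and 1 fell, against 12.6% and 9.15% of all genes, with a median of 0.62. Fads2, the delta-6 desaturase, went from 2.69, 8.06 and 2.20 CPM to 22.5, 15.4 and 21.7 CPM, by 2.21 ± 0.43 (adjusted p = 0.00229), and Hacd2, a dehydratase of elongation, from 4.24, 6.30 and 9.48 CPM to 26.1, 26.1 and 28.4 CPM, by 2.01 ± 0.40 (adjusted p = 0.00246). Acly, which makes cytosolic acetyl-CoA, rose by 0.78 ± 0.19, a call lost without LT-HSC library 1 (adjusted p = 0.0608). Elovl6, an elongase, fell from 91.0, 105 and 76.8 CPM to 21.4, 41.8 and 36.4 CPM, by −1.45 ± 0.29 (adjusted p = 0.00272). GMP library 2 alone gave 2 rises and 1 fall.

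In uptake, binding and activation 5 of 26 rose and 1 fell, against 12.6% and 9.15% of all genes. Plin2, a lipid droplet coat protein, went from 26.7, 25.3 and 31.9 CPM to 119, 188 and 135 CPM, by 2.40 ± 0.27 (adjusted p = 3.94e-05), and Acsl1, an acyl-CoA synthetase, from 32.3 ± 6.66 to 118 ± 31.2 CPM, by 1.86 ± 0.33. Dgat2, of triglyceride synthesis, had 27.6, 28.3 and 29.3 CPM in GMPs and 0.956, 0.0768 and 0.367 CPM in LT-HSCs, a call lost without LT-HSC library 2 or 3 (adjusted p = 0.0582 and 0.0523). Lpl, lipoprotein lipase, stood at 56.1, 1.44 and 15.2 CPM, mostly in library 1, a call lost without GMP library 1 or LT-HSC library 1 or 2 (adjusted p = 0.0712, 0.0655 and 0.0742). Lpin1, a phosphatidate phosphatase, went the other way, by −1.62 ± 0.45, a call lost without GMP library 1 or LT-HSC library 1 or 2 (adjusted p = 0.0607, 0.0584 and 0.0562). Rises in this list numbered 3 without LT-HSC library 2. Fatty acid oxidation had no common direction, with 6 of 32 higher and 5 lower, against 12.6% and 9.15% of all genes. The rises numbered 3 without LT-HSC library 2 and the falls 2 without GMP library 1 or LT-HSC library 2. Etfb, an electron carrier of beta-oxidation, rose by 2.31 ± 0.48 and Echs1 and Acaa2 by 1.12 ± 0.19 and 1.30 ± 0.27, while the acyl-CoA dehydrogenases Acadl, Acadm and Acad10 had −0.75 ± 0.17, −0.73 ± 0.20 and −1.38 ± 0.33. The call of Acadm was lost without GMP library 1 or LT-HSC library 1 or 2 (adjusted p = 0.0655, 0.0525 and 0.057).

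In eicosanoid synthesis 5 of 25 rose and none fell, against 12.6% and 9.15% of all genes. Lta4h, leukotriene A4 hydrolase, went from 89.3, 97.6 and 104 CPM to 831, 1017 and 702 CPM, by 3.13 ± 0.21 (adjusted p = 1.74e-06). Tbxas1, thromboxane synthase, stood at 67.7, 19.6 and 123 CPM against 13.98, 7.99 and 25.3 CPM, overlapping in library 2, a call lost without GMP library 3 or LT-HSC library 2 (adjusted p = 0.0546 and 0.0571). Alox15, a lipoxygenase, stood at 3.49, 1.64 and 10.7 CPM, with 2 counts in all LT-HSC libraries together, a call lost without GMP library 3 or LT-HSC library 1 or 3 (adjusted p = 0.0634, 0.0838 and 0.0873). Rises in the list numbered 3 without GMP library 3 and 8 without control LT-HSC library 3.

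Genes of the BCL2 family split 4 up and 3 down among 13, against 12.6% and 9.15% of all genes. Pmaip1, the BH3-only protein NOXA, went from 7.59, 3.30 and 0.183 CPM to 267, 532 and 157 CPM, by 6.42 ± 1.46 (adjusted p = 0.0061), while Bcl2l11, which encodes BIM, went from 148, 130.00 and 115 CPM to 53.1, 22.3 and 15.9 CPM, by −2.11 ± 0.37 (adjusted p = 0.00109). The other calls of the family each depended on single libraries: rises numbered 1 without LT-HSC library 1 or 2 and 2 without GMP library 1 or 2, LT-HSC library 3 or control GMP library 1, 2, 3 or 4, and falls 1 without GMP library 1 or 2 or LT-HSC library 2.

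Immediate early genes were high in LT-HSCs. Of 38 tested, 19 fell and 2 rose, against 9.15% and 12.6% of all genes, with a median of −1.49. Jun (chromosome 4, 95049034 to 95052222), a subunit of AP-1 and the most counted gene of the LT-HSC group, went from 15015, 10746 and 7189 CPM to 2212, 4206 and 4329 CPM, by −1.62 ± 0.34 (adjusted p = 0.0037). Junb went from 5756, 4606 and 2524 CPM to 729, 642 and 964 CPM, by −2.46 ± 0.38 (adjusted p = 0.000429), Fos from 4533 ± 880.2 to 1029 ± 359 CPM, by −2.14 ± 0.42, and Zfp36, an mRNA decay factor, from 4788 ± 1449 to 1018 ± 303 CPM, by −2.23 ± 0.39. Nr4a1, an orphan nuclear receptor, went from 2376, 921 and 725 CPM to 196, 49.2 and 190.4 CPM, by −3.21 ± 0.62 (adjusted p = 0.00211), and Egr1 from 3171, 1805 and 723 CPM to 316, 305 and 371 CPM, by −2.52 ± 0.55. LT-HSC library 3 was the lowest of its group for all of these and library 1 the highest for all but Fos. Gadd45a and Ier3 rose, by 3.14 ± 0.36 and 2.19 ± 0.51. With GMP library 2 alone this list gave 3 falls and 1 rise.

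Of 40 interferon response genes 6 fell and 2 rose, against 9.15% and 12.6% of all genes tested. Ddx58, the RNA sensor RIG-I, went from 127, 131 and 115 CPM to 43.5, 36.8 and 40.0 CPM, by −1.63 ± 0.22 (adjusted p = 0.000151), and Trim30a by −1.19 ± 0.24. Ifit2 and Cmpk2 were the rises, at 50.6, 15.6 and 23.6 CPM and 33.5, 4.58 and 22.1 CPM, the first lost without GMP library 1 or LT-HSC library 1 or 2 (adjusted p = 0.0918, 0.0577 and 0.0787) and the second lost without GMP library 1 or 3, LT-HSC library 1, 2 or 3, control GMP library 1, 2, 3 or 4 or control LT-HSC library 1, 2 or 4 (adjusted p = 0.0545 to 0.224). Falls in the list numbered 2 without GMP library 1 or LT-HSC library 2, 3 without LT-HSC library 3 and 10 without control LT-HSC library 3. Of 21 MHC class I and II genes 7 fell and none rose, against 9.15% and 12.6% of all genes. H2-K1, a classical class I chain, went from 5853, 4483 and 4578 CPM to 2843, 3143 and 2727 CPM, by −0.78 ± 0.20 (adjusted p = 0.0116), a call lost without LT-HSC library 1 (adjusted p = 0.0511), and H2-Q7, a nonclassical chain, from 1252, 810.0 and 772 CPM to 388, 280.4 and 410.4 CPM, by −1.39 ± 0.25 (adjusted p = 0.00111). Reads of the H2-Q genes can be split among near-identical copies. Without LT-HSC library 1, 4 of the class I and II genes fell. Of 22 HOX, MEIS and PBX genes 2 fell (6 without GMP library 3) and none rose, with falls near the 9.15% of all genes. The 2 were Hoxb2, at or under 0.611 CPM in every library, and Pbx4, from 77.2, 70.6 and 67.4 CPM to 13.4, 12.7 and 30.9 CPM, by −1.92 ± 0.33 (adjusted p = 0.00102).

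In homing and adhesion, 5 of 30 rose and 1 fell, near the 12.6% of all genes for rises and under the 9.15% for falls. Cxcr4, the receptor for the marrow chemokine CXCL12, went from 37.7, 64.6 and 76.5 CPM to 193, 104 and 195 CPM, by 1.46 ± 0.27 (adjusted p = 0.00164), and Cd44 by 2.42 ± 0.50. Itga9, an integrin chain, fell from 192, 174 and 209 CPM to 24.1, 9.69 and 50.4 CPM, by −2.77 ± 0.65 (adjusted p = 0.00723). Of 14 endothelial and stromal genes, 1 fell, Pdgfrb, a platelet-derived growth factor receptor, by −2.26 ± 0.76, a call lost without GMP library 1 or 3, LT-HSC library 1, 2 or 3, control GMP library 1, 2, 3 or 4 or control LT-HSC library 4 (adjusted p = 0.0514 to 0.125).

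Outside the lists, the largest rises among called genes with no overlap and a mean of at least 20 counts all began at 0 counts in LT-HSCs except Prg2. Mefv, the gene of pyrin, reached 129.8, 56.0 and 45.5 CPM, Prom1, the CD133 antigen, 67.0, 107 and 34.2 CPM, Siglece, an inhibitory sialic acid receptor, 36.6, 92.9 and 39.3 CPM, Abcd2, a peroxisomal fatty acid transporter, 70.0, 122 and 37.6 CPM, and Cldn15, a claudin, 65.5, 77.1 and 34.5 CPM. These are rises of at least 1186-, 1068-, 865-, 1178- and 907-fold. The largest falls ended at 0 counts in all GMP libraries. Adamtsl1, an extracellular matrix protein gene, stood at 16.5, 71.0 and 20.2 CPM in LT-HSCs, Slc16a12, a creatine carrier, at 21.6, 23.6 and 14.6 CPM, Insl6 at 12.7, 6.91 and 11.5 CPM and Txk, a Tec family kinase, at 7.29, 17.4 and 3.85 CPM, falls of at least 560.1-, 310.4-, 162- and 149-fold. Sgsm1, B3galt2 and the chemokine receptor gene Ccr1l1 fell at least 162-, 151- and 136-fold. Ppp1r14c, Luzp2, Sntg1 and Pof1b were highest in LT-HSC library 2, and their calls were lost without it (adjusted p = 0.0628, 0.0742, 0.0743 and 0.0975), that of Pof1b also without GMP library 1 or 2 or LT-HSC library 1 (0.0503 to 0.0586). Among the most counted genes, the elongation factor Eef1a1 had a difference of 0.02 ± 0.16 (−0.11 with RLE or upper-quartile factors), Eef2 of −0.03 ± 0.13, and mt-Co1 of cytochrome oxidase had 0.53 ± 0.21 (adjusted p = 0.0851). Hsp90ab1, a chaperone, rose by 0.56 ± 0.14, a call lost without LT-HSC library 2 (adjusted p = 0.0643).

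The same step in control mice gave 2247 rises (13.9%) and 1702 falls (10.6%). Of the genes called in AML1-ETO mice, 1702 were called in the same direction in control mice, 142 in the opposite direction, and 1661 in AML1-ETO mice alone, with 2105 in control mice alone, which by itself does not show a difference. Tested directly, the step was larger (more positive) in AML1-ETO mice for 552 genes (3.43%) and smaller for 469 (2.91%), 6.34% in all. With GMP library 2 alone these counts were 119 and 113.

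Among cell cycle genes the step was larger in AML1-ETO mice for 26 of 42 G2/M genes and 23 of 50 replication genes. It was smaller for none of them, against 3.43% larger and 2.91% smaller over all genes. The medians of these lists were 3.21 and 2.13 in AML1-ETO mice and 0.90 and 0.73 in control mice. GMP levels of Aurkb were similar in the genotypes, 214, 122 and 110.0 CPM and 135, 120.4, 136 and 143 CPM, whereas LT-HSCs held 3.64, 6.99 and 13.2 CPM in AML1-ETO and 50.8, 58.5, 42.9 and 62.9 CPM in control mice. The difference of steps was 2.91 ± 0.48 (adjusted p = 0.00353). Immunoglobulin genes took 2.26, 10.4, 1.92 and 2.76% of counts in control LT-HSC libraries 1 to 4. In every other library of the series the share was at most 0.144%. The part of such transcripts in the differences of steps, here and below, was not tested. Leaving out single libraries gave 12 (without LT-HSC library 2) to 32 (without LT-HSC library 3) larger steps in the G2/M list and 13 (without LT-HSC library 2) to 33 (without control LT-HSC library 1) in the replication list. With GMP library 2 alone, 5 G2/M and 2 replication genes passed this test.

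Cholesterol and fatty acid synthesis genes differed too, 4 of 31 and 5 of 25 with a larger step and none smaller. Over all genes the shares were 3.43% and 2.91%. Sqle stood at 38.9, 33.0, 30.2 and 44.1 CPM in control LT-HSCs and 39.6, 32.5, 49.4 and 47.3 CPM in control GMPs, a control step of 0.21 (adjusted p = 0.602), and its difference was 2.98 ± 0.39 (adjusted p = 0.00102). Cyp51 differed by 3.59 ± 0.49 (adjusted p = 0.00139). For Fads2 the steps ran in opposite directions, with control values of 70.2, 62.0, 118 and 94.7 CPM in LT-HSCs and 16.3, 20.5, 23.3 and 17.9 CPM in GMPs and a difference of 4.36 ± 0.57 (adjusted p = 0.00102). Leaving out single libraries gave 3 (without GMP library 1) to 5 (without GMP library 3) larger steps in cholesterol genes and 2 (without LT-HSC library 2) to 6 (without GMP library 2) in fatty acid synthesis genes. In each of the genes named here the AML1-ETO LT-HSC libraries were the lowest of the 4 groups.

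Primary granule genes differed both ways, 4 of 30 larger and 8 smaller, against 3.43% and 2.91% of all genes. Mpo had a smaller step, −2.79 ± 0.54 (adjusted p = 0.00916), with control LT-HSCs at 136, 44.2, 32.0 and 80.4 CPM and control GMPs at 18213, 17671, 17536 and 19674 CPM. Elane had a larger fitted step (adjusted p = 0.026), with 44.8, 12.8, 0 and 36.9 CPM in control LT-HSCs and no count in AML1-ETO LT-HSCs. Cpa3 rose across the control step, from 5.25, 17.9, 34.7 and 18.5 CPM to 101.07, 124, 99.4 and 86.5 CPM, and fell across the AML1-ETO step, a difference of −5.73 ± 0.67 (adjusted p = 0.000616). Prg2 differed by 7.67 ± 1.27 (adjusted p = 0.00379). For LT-HSC identity genes the fall was smaller in AML1-ETO mice in 18 of 46, with medians of −1.21 and −5.57 (from 6 (without LT-HSC library 2) to 21 (without GMP library 2) with single libraries left out).

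Erythroid, B cell and megakaryocyte genes had larger steps in AML1-ETO mice for 22 of 28, 11 of 24 and 6 of 23, against 3.43% of all genes. Control LT-HSC libraries carried these transcripts (erythroid markers 65.4 to 126 CPM and B cell markers 51.7 to 190 CPM, against at most 3.69 and 0.389 CPM in control GMPs), as did AML1-ETO GMP libraries 1 and 3. Their part in these differences was not tested, and with GMP library 2 alone 2, 2 and 1 members passed. Over single libraries left out, the erythroid count ranged from 16 (without LT-HSC library 1) to 24 (without GMP library 2), the B cell count from 6 (without LT-HSC library 1) to 12 (without GMP library 2) and the megakaryocyte count from 1 (without LT-HSC library 2) to 12 (without GMP library 2).

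**Figure D5:**
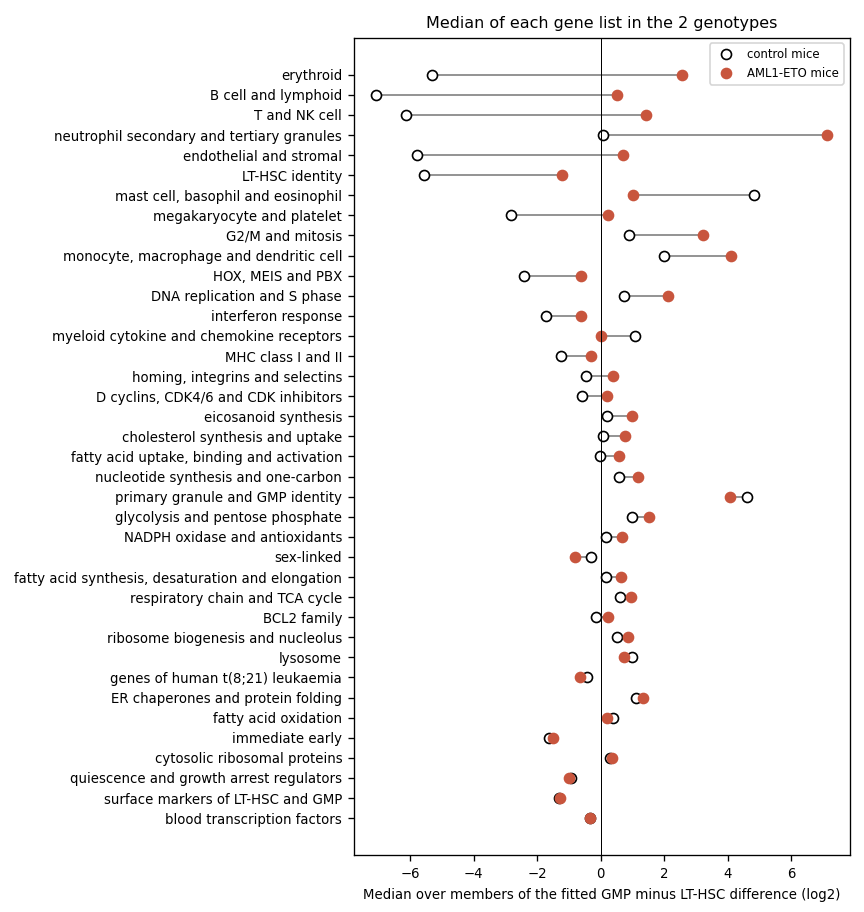
Median over the tested members of 38 gene lists, ordered by the distance between the genotypes, of the fitted log2 difference between GMPs and LT-HSCs, in control mice (open circles) and AML1-ETO mice (filled circles). The erythroid (−5.31 and 2.57), B cell (−7.07 and 0.50), T and NK cell and neutrophil granule lists lie furthest apart, and the mitosis medians are 0.90 and 3.21.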

How the data were processed

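The authors deposited raw read counts per gene symbol for 14 libraries in 1 table. HISAT2 2.0.5, featureCounts 1.5.0-p3 and mm10 are named in the submitters' processing notes without roles, and the sources used here give neither strand setting nor annotation. RNA was amplified with SMART-Seq v4 and SMARTer Stranded kits, per the labels' protocols, so amplification error adds to counting error.

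Counts were tested with edgeR 4.0.16 (R 4.3.3): filterByExpr, TMM factors, and the quasi-likelihood F test on all 14 libraries in 4 groups, which share 1 estimate of spread (10 residual degrees of freedom), with Benjamini-Hochberg adjustment over 16116 genes and a threshold of 0.05. No covariate was used. Contrasts were GMP minus LT-HSC in AML1-ETO mice, the same in control mice, and their difference. CPM are TMM-normalised, values after ± are the SD for levels and the standard error for log2 differences. Where a group had 0 counts, a floor of 3 counts over the group gave an at-least fold. DESeq2 1.42.0 and limma 3.58.1 (voom) were alternatives, besides other scalings, filters, a replicate block, a 2-fold test and single libraries left out. Scripts were tested on simulated data.

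Named genes were the fused genes, the 12 largest rises and falls, up to 4 rises and 4 falls per list, all surface markers, the 8 largest differences of steps each way and the 10 genes of highest mean CPM per cell type, with at least 20 counts on average over the 6 libraries and, for the largest rises and falls, no overlap. Named outside this rule, after their values were seen, were the marker genes, those listed as not called, Ctsg, Prtn3, Fgd5, Cdk1, Mecom, Ear2, Ear6, Mcpt8, Prss34, Rab44, Gata2, Tal1, Erg, Hhex, Hoxb2, the Mcm2 to Mcm7 genes, C1qa, C1qb, C1qc, Igha, Ddx3y and Uty. Comparison, members and the 38 gene lists (1060 genes) were chosen with earlier results of these data known. Of 54427 distinct symbols, 98.75% matched GENCODE M21, the source of gene coordinates; promoters are RefSeq's. Symbols that spreadsheets had turned into dates (27 lines, 0.140% of counts) stayed in the fits and were not named. A few genes that the rule or the marker lists held are not reported here; they stayed in the fits and in the counts over lists, and the erythroid marker sum leaves 1 out.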

Additional observations from a re-analysis of the deposited data

Results flagged for a closer look

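The step from LT-HSC to GMP differed between AML1-ETO and control mice, by the fit's own test of the difference (adjusted p under 0.05), for 71 of the 213 named genes. The step was more positive in AML1-ETO mice for 43 and less positive for 28, and for 40 the fitted steps of the genotypes had opposite signs. The values in brackets below are the AML1-ETO step minus the control step, on the log2 scale. A larger or smaller step below means a more or less positive one, not a change of larger or smaller size. All 71 share the same control and AML1-ETO libraries.

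Among genes of the cell cycle and biosynthesis the step was larger in AML1-ETO mice for Aurkb (2.91), Bub1 (3.13), Ube2c (3.27), Cdc45 (2.47), Mcm10 (2.52), Rrm2 (2.82), Mthfd2 (2.34), Nhp2 (1.46), Slc16a1 (2.04), Sdf2l1 (1.75) and Gadd45a (1.64). The lipid genes on this side were Sqle (2.98), Cyp51 (3.59), Fads2 (4.36), Plin2 (1.45) and Tbxas1 (4.69). Myeloid genes with a larger step were Prg2 (7.67), Cybb (5.74), Ctsh (4.06) and Ctss (5.14), and interferon-related genes Ifit2 (1.89), Cmpk2 (2.70) and Ifitm1 (4.32). Genes of other lineages or of stem cells with a more positive step were Hba-a1 (10.62), Hbb-bs (11.88), Add2 (11.05), Gp9 (7.58), Cd79a (11.50), Il7r (7.46), Tcf7 (9.24), Thy1 (6.41), Slamf1 (6.42), Nr4a1 (2.91) and Xist (11.62). For Slamf1 and Nr4a1 this was a smaller fall in AML1-ETO mice, −1.07 against −7.49 and −3.21 against −6.11 in control mice. Within AML1-ETO GMPs, all 11 genes of other lineages or of stem cells were lowest in library 2 and highest in library 1 or 3, whose erythroid, megakaryocyte and X-linked values are given in the results, and their part in the difference was not tested.

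A less positive step in AML1-ETO mice was found for the granulocyte and surface marker genes Mpo (−2.79), Fcgr3 (−6.05), Cd34 (−3.76), Cd48 (−5.57), Cd27 (−1.89) and Kit (−1.22). For Cd27 and Kit this was a larger fall, −1.97 against −0.07 and −1.95 against −0.73 in control mice. A less positive step was also found for genes whose mean was higher in AML1-ETO LT-HSCs than in the other 3 groups: Cpa3 (−5.73), Mitf (−4.97), Lat2 (−3.42), Plcg1 (−1.96), Il1rap (−3.02), Satb1 (−2.54), Cdk6 (−2.30), Bcl2l11 (−1.96), Foxo3 (−1.15) and Runx1 (−1.03). Among these, the fitted falls of Plcg1, Bcl2l11 and Foxo3 were larger in AML1-ETO mice (−2.53, −2.11 and −2.10) than in control mice (−0.57, −0.14 and −0.96). The Y-linked gene Kdm5d (−2.23) was lowest in GMP libraries 1 and 3 among the 6 AML1-ETO libraries.

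For 20 genes a group held 3 counts or fewer, so the fitted difference has no stable size and the mean levels are given in the order AML1-ETO LT-HSC, AML1-ETO GMP, control LT-HSC and control GMP. Elane stood at 0, 3164, 23.6 and 5131 CPM (adjusted p = 0.026), Cebpe at 1.88, 163, 0 and 104 CPM (adjusted p = 0.00285) and Csf1r at 1.15, 192, 0 and 201 CPM (adjusted p = 0.0142). Mmp9 stood at 0, 41.2, 3.81 and 0.135 CPM (adjusted p = 0.0277), Chil1 at 0, 42.4, 0.904 and 0.149 CPM (adjusted p = 0.0395) and Rhag at 0.0768, 9.73, 40.1 and 0.231 CPM (adjusted p = 0.00573). Btnl10 stood at 0, 2.63, 8.76 and 0.0808 CPM (adjusted p = 0.0204), Slc38a5 at 0, 9.35, 29.0 and 0.321 CPM (adjusted p = 0.00684) and Jchain at 20.4, 32.7, 1704 and 0.0135 CPM (adjusted p = 0.00677). Cpne8 stood at 0, 3.94, 7.76 and 0 CPM (adjusted p = 0.0452) and Ephb4 at 0, 6.03, 7.69 and 0.0717 CPM (adjusted p = 0.0462). GMP library 2 held no count of Mmp9, Chil1, Rhag, Btnl10, Slc38a5, Jchain, Cpne8 or Ephb4. Their GMP means come from library 1, library 3 or both, at 109, 0 and 17.9 CPM for Chil1 in libraries 1, 2 and 3, and for Ephb4 from library 1 alone (18.1, 0 and 0 CPM). The rise of Chil1 from LT-HSC to GMP was itself lost without GMP library 1 or LT-HSC library 1, 2 or 3 (adjusted p = 0.0648 to 0.0839), and that of Btnl10 lost without GMP library 1 or 3 or LT-HSC library 1, 2 or 3 (adjusted p = 0.0573 to 0.109). The remaining 9 all had counts in AML1-ETO LT-HSCs. Adamtsl1 stood at 35.9, 0, 0 and 0.0939 CPM (adjusted p = 0.00694), Prf1 at 30.6, 0, 0 and 0.143 CPM (adjusted p = 0.00215) and Insl6 at 10.4, 0, 7.03 and 0.625 CPM (adjusted p = 0.0161). Ccr1l1 stood at 8.71, 0, 0 and 0.0268 CPM (adjusted p = 0.0294), Capns2 at 5.29, 0, 0 and 0.965 CPM (adjusted p = 0.00567) and AW046200 at 2.69, 0, 0 and 1.03 CPM (adjusted p = 0.00696). Wnt5b stood at 3.27, 0, 0 and 0.126 CPM (adjusted p = 0.024), Creb3l1 at 79.1, 3.36, 0 and 1.69 CPM (adjusted p = 0.000333) and Nlrp3 at 70.7, 85.8, 0 and 26.8 CPM (adjusted p = 0.0129).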

How the results depend on the processing

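Of 197 called named genes, 84 stayed called under each of the 24 alternatives that tested them. Siglece, 1 of these, was tested in 23. Leaving aside the test against a 2-fold change, 97 stayed called. The counts of rises (2031), falls (1474), larger steps (552) and smaller steps (469) stayed within 1.5 times under other scaling factors and filters. They became 1090 larger steps with DESeq2, 734 smaller steps with limma voom, 567, 309, 222 and 170 against a 2-fold change, and 1211, 777, 119 and 113 with GMP library 2 alone. With single libraries left out they ranged over 1294 to 2498, 798 to 2079, 235 to 735 and 236 to 742, with the lowest values without LT-HSC library 2. For the larger and smaller steps, each control GMP library left out also lowered the counts, to 328 to 349 and 258 to 297, and LT-HSC library 1 the larger steps to 333, while the smaller steps reached 742 without control LT-HSC library 1. The cause was not tested. Rises made up 57.9% of the calls with TMM and 48.5% to 49.7% with RLE, upper-quartile or DESeq2 factors. Upper-quartile and DESeq2 factors moved the median of all genes by −0.105 and −0.101 on the log2 scale.

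Same-numbered AML1-ETO libraries correlated at 0.0910, 0.161 and 0.109 after group means were removed, each best with its own number, and control libraries at −0.0388 to 0.0182, so pairing was not established. With the replicate number as a block, 1546 genes rose, 1073 fell, and 300 and 208 had larger and smaller steps.

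Some named genes, called or not, changed sign. Eef1a1 became −0.11, −0.11, −0.11, −0.088, −0.023 and −0.054 with RLE, upper-quartile, DESeq2, the 20-count filter, the 6 libraries alone and without LT-HSC library 2. Over single libraries left out, Eef1a1 ranged up to 0.086, Itga2b to 0.69, Il7r to 1.19, Jchain to 1.27 and Nlrp3 to 2.50, and Eef2 down to −0.0847. Itga2b became −0.30, −0.43, −1.52, −0.07 and −1.75 with voom, the block, without GMP library 3, without LT-HSC library 2 and with GMP library 2 alone. Il7r became −1.44, −0.25, −0.14 and −8.06, and Jchain −4.99, −3.35, −11.35 and −11.35, with voom, the block, without GMP library 3 and with GMP library 2 alone. Eef2 became 0.0075, 0.017, 0.0034 and 0.049 with voom, without GMP library 1, without LT-HSC library 1 and with GMP library 2 alone. Nlrp3 became −1.28, −0.22, −0.17 and −1.37 without GMP library 1, LT-HSC library 2 or LT-HSC library 3 and with GMP library 2 alone. With GMP library 2 alone, the called genes Rhag, Add2, Cd79a, Ccnd1, Cmpk2 and Xist became −3.28, −5.90, −0.55, −1.05, −0.49 and −1.49, and Thy1, not called, −2.02; those 6 also lost their calls without several single libraries each.

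With 3 libraries a group, an exact test over libraries cannot go below 0.1. The fits share an estimate of spread over all groups, so what they can call depends on the spread within every group. Control LT-HSC libraries correlated least with each other, at 0.784 to 0.859, against 0.847 to 0.868 among AML1-ETO GMPs. Without control LT-HSC library 3, the step in AML1-ETO mice had 2498 rises and 2079 falls, against 2031 and 1474 with all libraries. Leaving out any AML1-ETO GMP library gave 1634 to 1901 rises and 951 to 1397 falls. A group with no count of a gene allows up to 0.0641 CPM in GMPs or 0.0650 CPM in LT-HSCs, by counting error only. Sex, batch, sort date and mouse of origin are not given in the labels, so the unlike GMP libraries cannot be assigned to any of these. The difference of steps was not run on the 6 AML1-ETO libraries, which hold no control.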

Other observations

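More genes carried a count in LT-HSC than in GMP libraries of AML1-ETO mice. LT-HSC libraries had at least 1 count for 16427, 18106 and 17388 genes and GMP libraries for 13473, 14887 and 14077, although the totals of counts overlapped. Every LT-HSC library lay above every GMP library, and the exact permutation test over libraries (two-sided) gave 0.1, the smallest p that 3 against 3 allows (0.2 after Benjamini-Hochberg adjustment over 8 library measures). The gap was smaller among genes at 1 CPM or more, 13174 ± 122 in LT-HSCs and 12666 ± 288 in GMPs (SD, n = 3). Counted from the same zeros, 296 called genes fell to 0 counts in all GMP libraries, while 86 rose from 0 counts in all LT-HSC libraries. Control libraries had the reverse order. At least 1 count was found for 15329, 14780, 12106 and 13664 genes in control LT-HSCs and for 19508, 19388, 18747 and 18894 in control GMPs. The cause was not tested. The share of counts on mitochondrial genes was 0.921 ± 0.0793% in AML1-ETO LT-HSCs and 1.39 ± 0.210% in AML1-ETO GMPs (exact p = 0.1, adjusted 0.2).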
